A study of Mus musculus with 15 samples.

Results

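The SOCS family of feedback inhibitors was described here through its promoters. The family holds 8 genes (Socs1, Socs2, Socs3, Socs4, Socs5, Socs6, Socs7 and Cish), and every annotated TSS of these genes was taken by gene symbol, whatever its values. This gave 11 promoters of 25881, since Socs2 has 4 annotated starts. Of the 11, 7 passed the coverage score of 100 that defines a high-coverage promoter, among 13559 such promoters in all. They were the promoters of Socs1, Cish and Socs4 and the 4 starts of Socs2. Socs3, Socs5, Socs6 and Socs7 lay below that score, so their values are given without a test. Nearest to the limit were Cish on the inside, with a score of 121.5, and Socs7 on the outside, with 84.75.

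SOCS proteins switch off the signals that induce them. Cytokine receptors activate JAK kinases, which phosphorylate STAT transcription factors, and STATs in turn drive transcription of SOCS genes. The SOCS protein binds phosphorylated receptors or kinases through its SH2 domain and recruits, through its SOCS box, an elongin and cullin ubiquitin ligase. Socs1 and Socs3 can also block JAK kinase activity directly, and are known as early response genes of interferon, interleukin-6 family cytokines and microbial stimuli in dendritic cells and macrophages. Cish and Socs2 are known targets of STAT5, the factor downstream of GM-CSF, growth hormone and prolactin. Socs4 to Socs7 are less studied and are not regarded as typical cytokine-induced genes. Before a promoter can be transcribed, its TSS has to be accessible, and active promoters usually carry a nucleosome-depleted region (NDR) just upstream of the TSS.

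Occupancy was measured by ChIP-MNase, which couples immunoprecipitation of long pieces of chromatin to their digestion with micrococcal nuclease on the beads, in 15 libraries of mouse cells. H3K4me1 chromatin came from DCs, grown with GM-CSF from bone-marrow progenitor lines, without stimulation and after 1 h with LPS at 100 ng/ml, and from 3T3 cells, an immortalised fibroblast line, without stimulation and after 1 h with TNF-alpha at 5 ng/ml. Each of these 4 sets pools 2 replicates. A further 8 single H3K4me1 libraries came from fibroblasts that carried either a control construct or a stably expressed, retroviral shRNA against a sequence shared by Brg1 and Brm, the ATPases of the BAF chromatin remodeller, both states with 2 replicates each. Cells with the construct were sorted by GFP. From TNF-alpha stimulated fibroblasts without a knockdown there were 2 libraries of pol-II S7P chromatin and 1 of pol-II S5P, which are phosphorylated forms of RNA polymerase II. No RNA of these cultures was part of the values, so that the knockdown could not be checked here. The study calls its replicates biological without the labels naming separate cultures. In the single libraries, p-values thus measure the spread between these libraries.

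Each library gives 200 bins of 10 bp from −1000 to 1000 bp of every TSS, relative to the surrounding 1 kb, and was divided here by its mean over high-coverage promoters. A scaled occupancy of 1 is thus the mean of a library and a bin at 0 held no fragment. Read counts are not part of these values, so the depth of a library is unknown. Its effect can be seen in the share of bins with any signal, which over high-coverage promoters ranged from 82.0% to 90.2% for pooled sets. A bin value averages the surrounding 50 bp, so a bin with signal need not itself hold a fragment. Single libraries filled fewer, 63.5% to 78.1% for H3K4me1 and 69.2% to 81.2% for pol-II. Profiles of single promoters were noisy at this depth. Between the replicates of a group, Pearson's r over the 200 bins of a SOCS promoter was −0.185 to 0.551, against 0.154 to 0.237 for the median promoter in the 5 groups. As populations of cells were measured, an occupancy does not tell how many alleles carry a nucleosome from how regularly it is placed. The cell types could be checked in public RNA-seq that the authors added to the annotation, not in these cultures. All 7 DC markers (Itgax, Cd74, Spi1 and others) ranked higher in DCs, at the 72.7 to 99.9 percentiles of all promoters against 36.8 to 61.0 in fibroblasts, and all 7 fibroblast markers (Col1a1, Pdgfrb and others) ranked higher in fibroblasts, at 61.9 to 99.8 against 0 to 55.9 in DCs.

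The promoters of the known STAT5 targets share a sequence feature that the other SOCS promoters lack. STAT dimers bind the palindrome TTCNNNGAA, and this was searched on both strands from −250 to 49 bp of each TSS. It was found in 7.80% of 25738 promoters and in 3 of the 11 SOCS promoters, those of Cish, Socs3 and the longest Socs2 transcript (RefSeq NM_007706). In Cish and Socs2 it occurred as a tandem pair whose starts lie 11 bases apart. The pairs are shown because they are nearly the same in both genes, with 19 of 20 letters shared. Capitals mark the motifs.
Cish, −30 to −11: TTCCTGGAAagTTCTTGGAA
Socs2 NM_007706, −66 to −47: TTCCTGGAAagTTCCTGGAA
Only 3 promoters of the 25738 held a pair at this spacing (0.0117%), the third being Gabrb1, a subunit of the GABA receptor. The spacing was looked at after the sequences had been seen. A match is a description of the letters and not a measured binding site.

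The whole windows of the inducible members are given for context, read from the mm9 genome on the strand of the gene, with TTCNNNGAA in capitals in Cish, Socs2 and Socs3. Socs1 holds no TTCNNNGAA in its window, and its capitals mark GGGCGG, the core of a GC box that Sp1 family factors bind.
Cish, chr9:107198770-107199069, plus strand: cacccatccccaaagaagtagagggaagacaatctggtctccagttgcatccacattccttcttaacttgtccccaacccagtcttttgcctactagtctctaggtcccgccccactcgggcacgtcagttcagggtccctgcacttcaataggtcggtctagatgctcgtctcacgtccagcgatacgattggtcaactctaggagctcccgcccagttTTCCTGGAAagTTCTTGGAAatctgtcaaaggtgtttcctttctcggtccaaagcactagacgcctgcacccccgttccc
Socs2 NM_007706, chr10:94879442-94879741, minus strand: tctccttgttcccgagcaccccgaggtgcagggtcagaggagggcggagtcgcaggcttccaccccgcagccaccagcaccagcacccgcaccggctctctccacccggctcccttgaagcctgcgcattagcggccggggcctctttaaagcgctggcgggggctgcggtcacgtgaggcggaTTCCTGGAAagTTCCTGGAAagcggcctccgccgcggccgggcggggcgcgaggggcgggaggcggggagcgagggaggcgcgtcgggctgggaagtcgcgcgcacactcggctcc
Socs3, chr11:117830631-117830930, minus strand: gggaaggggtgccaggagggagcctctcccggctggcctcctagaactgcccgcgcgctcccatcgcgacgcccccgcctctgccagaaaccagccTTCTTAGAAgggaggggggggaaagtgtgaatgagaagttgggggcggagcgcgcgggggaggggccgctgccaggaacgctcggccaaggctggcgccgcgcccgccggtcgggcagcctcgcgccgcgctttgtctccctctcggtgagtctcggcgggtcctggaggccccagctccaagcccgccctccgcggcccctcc
Socs1, chr16:10785580-10785879, minus strand: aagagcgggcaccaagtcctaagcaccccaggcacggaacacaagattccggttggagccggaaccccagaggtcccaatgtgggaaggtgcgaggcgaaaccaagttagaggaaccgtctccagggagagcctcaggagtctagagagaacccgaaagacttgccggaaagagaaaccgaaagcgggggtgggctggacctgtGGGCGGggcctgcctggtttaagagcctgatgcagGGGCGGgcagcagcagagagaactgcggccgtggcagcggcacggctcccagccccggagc
GGGCGG was found in 9 of the 11 SOCS promoters and in 45.2% of all. TATAAA was found in 1 (Socs2 NM_001168655), against 12.7% of all. TGANTCA, the AP-1 motif, and TGACGTCA, the CRE, were found in 0 of 11, against 7.09% and 2.38% of all promoters. By sequence within 200 bp of the TSS, 8 of 11 SOCS promoters (72.7%) were CpG islands, against 48.3% of all promoters and 56.1% of those with high coverage. The 3 that were not are the internal starts of Socs2.

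Before stimulation, the cytokine-induced members were already expressed in DCs. The public RNA-seq gave 13.1 FPKM for Socs3, 12.3 for Cish and 9.10 for Socs1, which lay at the 98.2, 98.1 and 97.4 percentiles of all promoters in DCs. In fibroblasts the same genes had 7.07, 3.04 and 3.68 FPKM and lay lower in the order, at the 74.9, 65.2 and 67.1 percentiles. Socs5 had the opposite order. It stood at the 97.2 percentile in fibroblasts, with 63.2 FPKM, and at the 67.5 percentile in DCs, with 0.495 FPKM. Socs4 stood at the 92.2 percentile in DCs, with 3.47 FPKM, and at the 84.7 percentile in fibroblasts, with 14.4 FPKM. Of the Socs2 starts, NM_007706 stood at the 91.4 percentile in DCs and the 48.9 percentile in fibroblasts, and NM_001168657 at the 91.2 and the 69.9 percentile. The columns have scales of their own, so FPKM values are compared between genes within a cell type and only ranks between cell types. In such bulk values, fewer expressing cells and less RNA per cell cannot be told apart.

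The region of lowest occupancy lay across, upstream or downstream of the TSS, depending on the member. For every promoter the 200 bp window with the lowest mean occupancy in the 2 DC sets was located between −600 and 400 bp, and then read in the fibroblast libraries, which had no part in locating it. This measure was chosen after the profiles had been seen. Occupancy in the window was below 0.5 in the pooled fibroblast sets at 8 of the 11 SOCS promoters, against 39.3% of all promoters, and at 4 of the 7 with high coverage, against 44.2% of these. The windows of Socs2 NM_001168657 and Socs2 NM_001168656 are nearly the same stretch of DNA, so both counts include this gap under 2 starts. In the single H3K4me1 libraries it was below 0.5 at 3 of the 11, against 27.4% of all. Those 3 were Socs1, Socs3 and Cish, and 3 of 11 is near that background. The limit separated near-equal means. Cish passed at 0.497, with 6 of 8 libraries below 1, and Socs4 missed at 0.501, with 8 of 8 below 1. The centre of the lowest window in fibroblasts lay within 100 bp of that in DCs at 7 of the 11, against 50.2% of all promoters, and at 4 of the 7 with high coverage, against 55.8% of these.

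**Figure D1:**
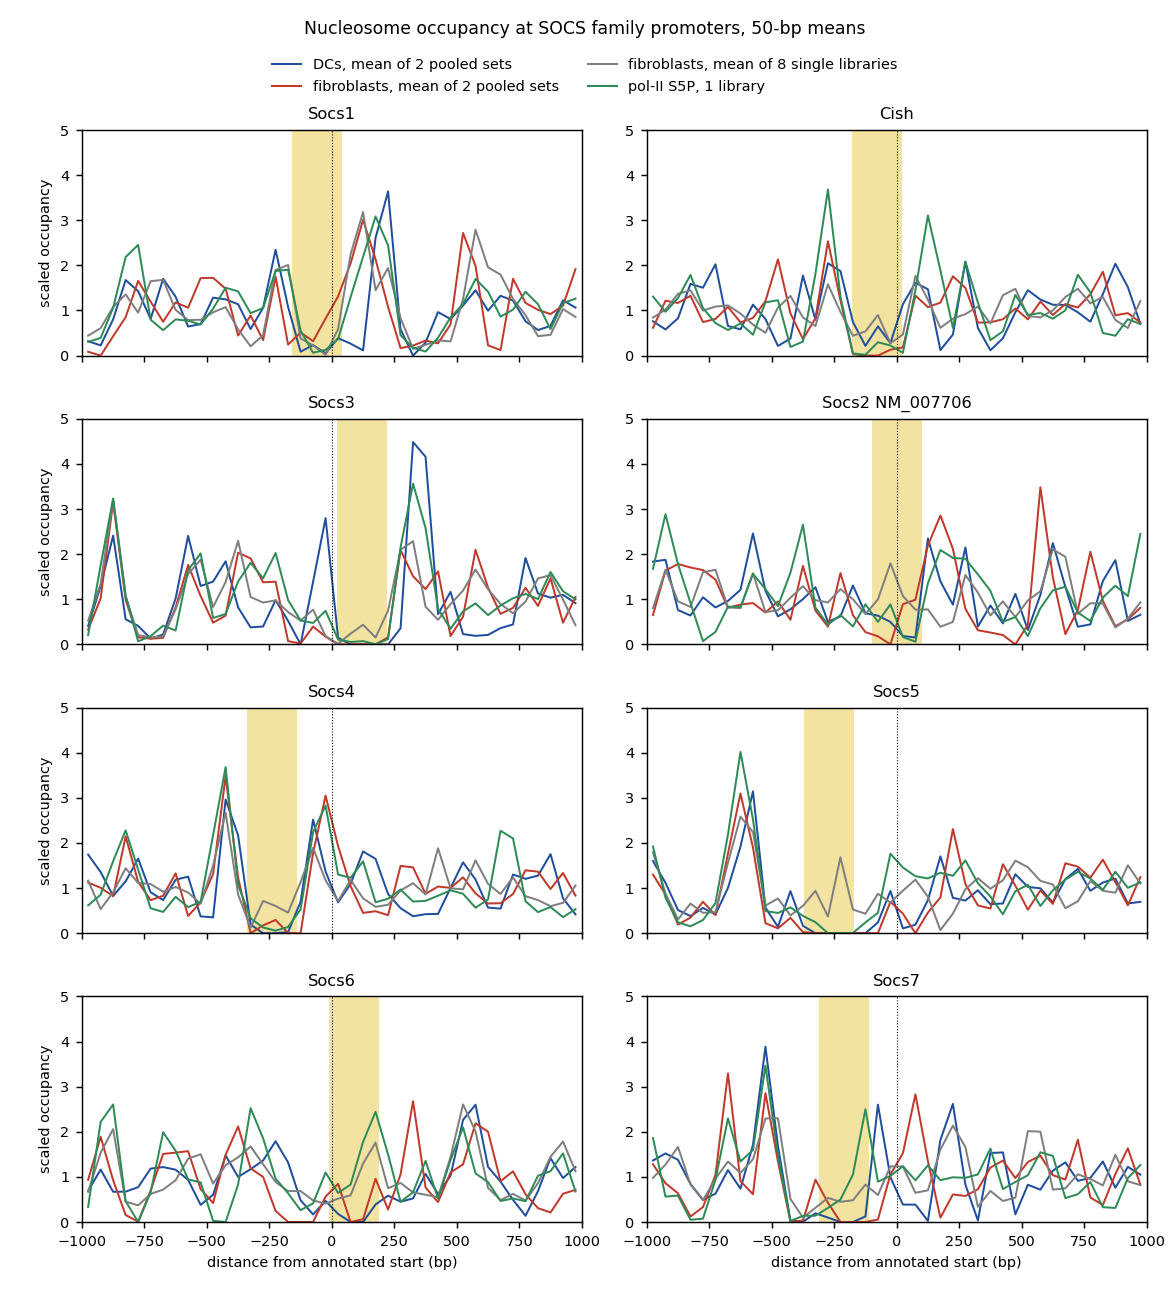
Scaled nucleosome occupancy (50 bp means, vertical axis) against distance from the annotated start in bp (horizontal axis) at 8 SOCS family promoters, with lines for DCs (mean of 2 pooled sets), fibroblasts (mean of 2 pooled sets), fibroblasts (mean of 8 single libraries) and pol-II S5P (1 library). The shaded band is the 200 bp window that was lowest in DCs, and the dotted line is the start. At Socs4 the 4 lines share a peak at −450 to −400 bp and a gap beside it, whereas at Socs1 the gap lies across the start.

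The Socs1 TSS, at position 10785629 of chromosome 16 on the minus strand, lay inside its gap, which ran from −160 to 40 bp. Occupancy there was 0.340 in non-stimulated and 0.0103 in LPS-stimulated DCs. In the single fibroblast libraries it was 0.312 ± 0.267 (SD, n = 8), below 1 in 8 of 8, and in the control libraries it was 0.544 and 0.277 without stimulation and 0.0779 and 0.587 with TNF-alpha. The BAF-knockdown libraries had 0.653 and 0 without and 0.354 and 0 with TNF-alpha, which overlaps the controls. The pooled fibroblast sets held more, 0.429 and 0.987, and the lowest window of fibroblasts was centred at 300 bp. Within 600 bp of the TSS, the highest occupancy of the promoter lay downstream in each set, though not in 1 place. It was at 50 to 100 bp in pol-II S7P chromatin (2.19), at 100 to 150 bp in the pooled fibroblast sets (3.01) and in the single libraries (3.18), at 150 to 200 bp in the pol-II S5P library (3.08) and at 200 to 250 bp in DCs (3.64). The GC box at −46 bp, which is printed in capitals above, had an occupancy of 0.0647 in DCs, 0 in the pooled fibroblast sets and 0.0313 ± 0.0886 (SD, n = 8) in the single libraries, with a median of 0. The second GC box, at −11 bp, had 0.0972 in DCs and 0.0325 ± 0.0617 (SD, n = 8) in the single libraries but 1.44 in the pooled fibroblast sets, above the library mean.

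At Socs3 the lowest window in DCs lay just downstream of the annotated TSS, from 20 to 220 bp. The search fixes its width, so its edges need not be those of the gap. Occupancy in this window was 0 in each of the 4 pooled sets. In the single fibroblast libraries the occupancy was 0.254 ± 0.410 (SD, n = 8). The highest value, 1.203, was in control replicate 1 without stimulation, the other 3 non-stimulated values were 0, 0.374 and 0.2204, and the 4 stimulated ones were 0.237, 0, 0 and 0. The pol-II S5P library had 0.0383 and the S7P libraries 0.516 and 0.797. The GENCODE annotation places a coding transcript start of Socs3 at position 117830500 of chromosome 11, 180 bp downstream of the RefSeq start and inside the gap. Within 600 bp of the TSS, the highest occupancy lay at 300 to 350 bp in DCs (4.48) and pol-II S5P chromatin (3.56). It lay at 550 to 600 bp in pooled fibroblasts (2.10), −400 to −350 bp in the single libraries (2.30) and −300 to −250 bp in pol-II S7P chromatin (4.04). The region upstream of the TSS was less even. From −150 to 0 bp, occupancy without stimulation was 0.0009 in DCs and 0 in the pooled fibroblast set. With stimulation it was 2.79 and 0.39. Occupancy from −150 to 0 bp gave an NDR depth (the log2 ratio to the occupancy from −1000 to −500 bp) of −3.50 without and 1.41 with LPS in DCs, 1 set each. The STAT motif at −154 to −146 bp had 0.0479 in DCs and 0 in pooled fibroblasts, and 0.694 ± 1.15 (SD, n = 8) in the single libraries, which covers the range from 0 to 3.41. Socs3 lay below the coverage limit, and a 0 in its window can also come from few fragments.

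Cish, whose TSS is at position 107199020 of chromosome 9 on the plus strand, had its gap at −180 to 20 bp, over the tandem motif. It was nearly empty in non-stimulated DCs (0.0154) and in the pooled fibroblast sets (0.0954 without and 0 with TNF-alpha), but held 0.883 in LPS-stimulated DCs. In control fibroblasts the window was at 0 in 3 of 4 libraries and at 1.15 in stimulated replicate 1. The BAF-knockdown libraries had 0.696, 1.75, 0.320 and 0.0519, each above the 3 control libraries at 0, and the groups overlapped through the control library at 1.15. Over the first motif at −30 to −22 bp the occupancy was 0.206 in DCs, 0.1299 in the pooled fibroblast sets and 0.242 ± 0.685 (SD, n = 8) in the single libraries, with a median of 0 and a highest value of 1.94. At the second motif Cish had 0 in DCs, 0.172 in the pooled fibroblast sets and 0.173 ± 0.489 in the single libraries. At Socs2 NM_007706 the first site had 0.400 in DCs, 0.1001 in the pooled fibroblast sets and 1.40 ± 0.89 (SD, n = 8) in the single libraries, and the second site 0.382, 0.0423 and 1.62 ± 0.64, at least 0.502 in each of the 8. The Socs2 sites were thus higher than those of Cish in DCs and in the single libraries, and lower in the pooled fibroblast sets. No test was made between the promoters.

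**Figure D2:**
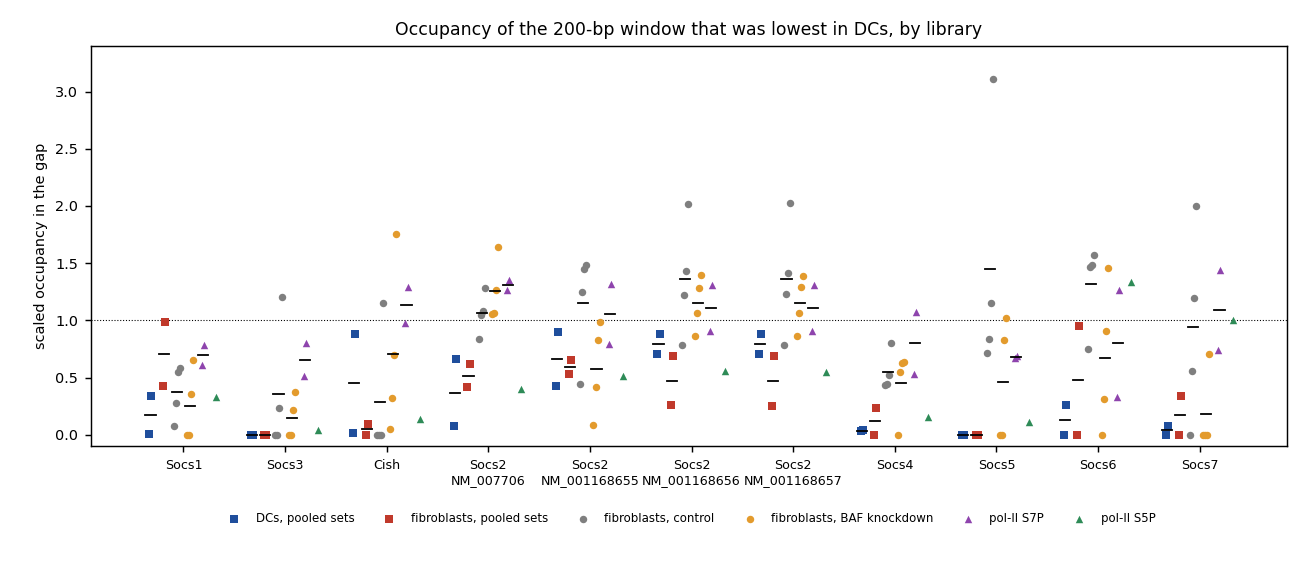
Scaled occupancy (vertical axis) of the 200 bp window that was lowest in DCs, by library, for the 11 SOCS family promoters (horizontal axis). Points are libraries, bars are means of a group, and the dotted line is the library mean of 1. The DC points chose the window. At Socs3 the pooled sets sit at 0, and 3 of the 4 Cish control libraries sit at 0.

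Socs2 is a negative regulator of growth hormone signalling, and its 4 annotated starts lie on the minus strand of chromosome 10 at positions 94879491, 94878846, 94878118 and 94877917, so that their windows overlap and share fragments. They had the highest coverage of the family, with scores of 376.5 to 577.5, the last at the 96.0 percentile of all promoters. Nevertheless they had little common pattern. The lowest window in DCs read 0.469, 0.472, 0.588 and 0.516 in the pooled fibroblast sets, in the order NM_001168657, NM_001168656, NM_001168655 and NM_007706. In the single libraries it read 1.26, 1.26, 0.866 and 1.16, so that 3 of the 4 windows held more than the library mean. Pearson's r between the DC and the pooled fibroblast profile was 0.0693 to 0.167 for the 4 starts, and between pooled and single fibroblast profiles −0.0378 to 0.111. For the median high-coverage promoter these were 0.385 and 0.406. The bins of a profile overlap and are not independent, and the correlations are given as a description.

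Of the other members, Socs4, which has been linked to EGF receptor signalling, had a peak and a gap in the same place in most sets. A nucleosome at −450 to −400 bp gave the highest occupancy within 600 bp of the TSS in DCs (2.96), pooled fibroblasts (3.48), single libraries (2.67) and pol-II S5P chromatin (3.68). In pol-II S7P chromatin the highest occupancy in that range was at −50 to 0 bp (1.89). The gap followed at −340 to −140 bp, with 0.0361 and 0.0369 in DCs, 0.236 and 0 in the pooled fibroblast sets, 0.501 ± 0.234 (SD, n = 8) in the single libraries and 0.156 in pol-II S5P, but 0.532 and 1.08 in pol-II S7P. All 8 single libraries were below 1. This gap lies upstream of the RefSeq start at position 47896818 of chromosome 14. GENCODE has coding starts of Socs4 at −212 bp, inside the gap, and at −29 bp, downstream of it. Coding starts of Wdhd1, a replication factor gene on the opposite strand, lie from −353 to −286 bp, on both sides of its upstream edge. The usual NDR window of −150 to 0 bp had an occupancy of 1.40 ± 1.04 (SD, n = 8) at Socs4. The control libraries had 2.54, 2.58, 1.38 and 2.32 there, and the knockdown libraries 0.950, 0, 0.0196 and 1.40. The pooled sets had 1.76 and 1.30 in DCs and 0.730 and 2.49 in fibroblasts, without and with stimulation.

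Socs5 had its lowest window upstream of the NDR window, and that of Socs7 overlapped its upstream edge. Both promoters lay below the coverage limit. At Socs5 the NDR window had 0.782 without and 0 with LPS in DCs, and 0 without and 0.464 with TNF-alpha in pooled fibroblasts. At Socs7 it had 0 and 2.48 in DCs and 0.739 and 0 in pooled fibroblasts, in the same order. At Socs5 occupancy from −370 to −170 bp was 0 in each of the 4 pooled sets, and pol-II S5P had 0.110, whereas the single libraries had 0.957 ± 0.971 (SD, n = 8) with 2 at 0 and the highest at 3.11. At Socs7 the window from −310 to −110 bp had 0.0759 and 0 in DCs, 0.338 and 0 in the pooled fibroblast sets and 0.558 ± 0.732 in the single libraries. An upstream nucleosome at −550 to −500 bp gave 3.88 in DCs, 2.85 in pooled fibroblasts and 3.47 in pol-II S5P chromatin at Socs7. Socs6, which is known to bind signalling proteins of the insulin and Kit pathways, had a window in DCs (−10 to 190 bp, 0 and 0.261) that read 0.950 and 0 in pooled fibroblasts and 0.993 ± 0.601 in the single libraries, close to the mean of a library. Between DCs and pooled fibroblasts the profiles of Socs5, Socs4 and Socs6 had r values of 0.691, 0.524 and 0.400, above those of Socs7 (0.271), Socs1 (0.252), Cish (0.254) and Socs3 (0.209).

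NDR depth, the log2 ratio of occupancy from −150 to 0 bp to that from −1000 to −500 bp with 0.1 added to each, was used to compare the groups. A negative value stands for a depleted region. In the 8 single libraries, Socs1 had −2.45 ± 1.49, Cish −1.70 ± 1.88 and Socs4 −0.23 ± 1.96 (SD, n = 8), where the median promoter had −0.81. Socs3, below the coverage limit, had −1.86 ± 1.76. The spread of single libraries thus exceeded most differences between promoters.

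**Figure D3:**
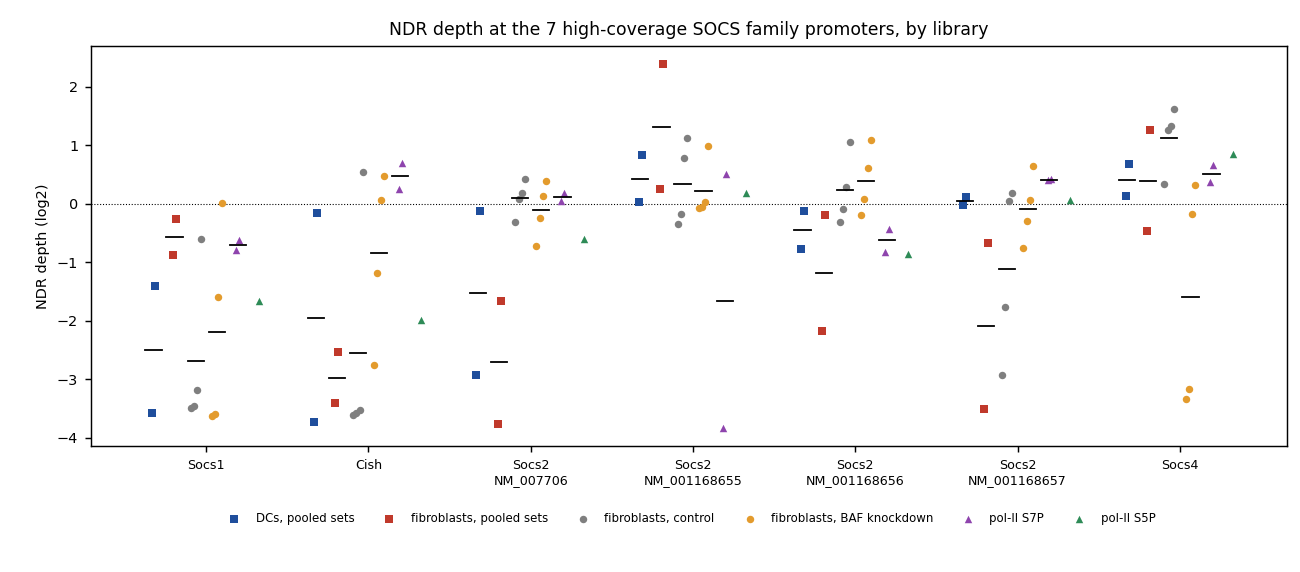
NDR depth (log2, vertical axis) in each library at the 7 high-coverage SOCS family promoters (horizontal axis). Points are libraries, coloured by group, and bars are group means. At Socs1 and Cish the libraries of 1 group spread from near 0 to below −3.4, and at Socs4 the control libraries lie above 0.3.

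Between DCs and fibroblasts, no difference in NDR depth at a SOCS promoter was called. Socs1 had −1.42 and −3.58 in DCs and −0.88 and −0.26 in the pooled fibroblast sets. The difference was −1.92 ± 0.90 (SE; limma, adjusted p = 0.787). Socs2 NM_001168657 had the opposite order, with −0.02 and 0.12 in DCs and −0.67 and −3.52 in fibroblasts, a difference of 2.14 ± 0.94 (limma, adjusted p = 0.772). Cish had means of −1.95 and −2.97, with overlapping sets, and Socs4 had means of 0.41 and 0.39. By limma, 0 of the 7 SOCS promoters were called, as was 0% of all, and 0 of the 7 had an unadjusted p under 0.05, against 6.97% of all. The fit has 1 set per cell type and state, with state as an additive term. Its only residual is the difference between LPS in DCs and TNF-alpha in fibroblasts. These p-values measure that spread and not the spread between cultures. Both the cultures and the stimulus differ between cell types.

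LPS in DCs and TNF-alpha in pooled fibroblasts are each represented by 1 set per state, so their values carry no test. With LPS, NDR depth at Cish went from −3.73 to −0.16, at Socs1 from −1.42 to −3.58 and at Socs2 NM_007706 from −0.12 to −2.93. These 3 of 7 were past 1 on the log2 scale, as were 33.2% of all high-coverage promoters. The remaining 4 SOCS promoters differed by −0.80 to 0.66. An empty window puts NDR depth at a floor set by the pseudocount, as at Cish without LPS and Socs1 with it. With 0.3 added in place of 0.1, the differences were 2.22 at Cish, −1.18 at Socs1 and −1.97 at Socs2 NM_007706. At that setting 3 of 7 were still past 1, against 21.4% of all. With TNF-alpha in the pooled fibroblast sets, 5 of 7 were past 1, against 36.1% of all. Of the 5, 2 were higher and 3 lower. They were the starts of Socs2 and the promoter of Socs4, with differences of −2.85 (Socs2 NM_001168657), −1.99 (Socs2 NM_001168656), 2.15 (Socs2 NM_001168655), −2.11 (Socs2 NM_007706) and 1.73 (Socs4). The sizes of these differences depended on the pseudocount. With 0.3 added, 5 of 7 were past 1, against 24.0% of all, and Socs2 NM_007706 had −1.10. They also depended on the window. Read from −100 to 50 bp, 4 of 7 were past 1, 3 higher and 1 lower, against 37.2% of all, and Socs2 NM_007706 changed sign to 0.55, Socs1 went from 0.62 to 2.64 and Socs2 NM_001168657 from −2.85 to −0.79.

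The single libraries gave a second reading of the TNF-alpha response, with other values. With 4 stimulated against 4 non-stimulated libraries, the same promoters had 0.77, −0.21, 0.85, −0.03 and −0.17 in the same order (Socs2 NM_001168657, Socs2 NM_001168656, Socs2 NM_001168655, Socs2 NM_007706 and Socs4). For Socs2 NM_007706 the 95% interval was −0.92 to 0.86, and the pooled sets had −2.11 in this window. The interval is for a mean over control and BAF-knockdown cells. The pooled value has no error of its own, so the interval cannot judge it. The pooled 0.55 was read in the shifted window, which is another measure, and cannot be set against this interval either. The pooled sets came from unmodified fibroblasts and the single libraries from cells with a control or a knockdown construct. Socs1 had −2.24 with and −2.65 without TNF-alpha, a difference of 0.40 ± 0.98, and Cish −1.75 and −1.65, a difference of −0.09 ± 0.90. By limma, 0 of the 7 were called, as was 0% of all, and 0 of the 7 had an unadjusted p under 0.05, against 6.53% of all.

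The knockdown libraries address whether nucleosomes at these promoters depend on the BAF remodeller. At Socs4 the 4 control libraries had an NDR depth of 1.62, 1.32, 0.33 and 1.26, and the knockdown libraries −0.18, −3.34, −3.17 and 0.32. The highest knockdown value, 0.32, and the lowest control value, 0.33, were nearly equal. The means were −1.59 and 1.13, a difference of −2.72 ± 0.96 (SE; limma, adjusted p = 0.738). This is the window whose occupancy was above the library mean in the control libraries of Socs4. In the gap upstream of it, the knockdown libraries (0, 0.640, 0.548 and 0.623 in occupancy) overlapped the controls (0.443, 0.798, 0.519 and 0.436). Cish had −0.85 with and −2.55 without the knockdown, a difference of 1.70 ± 0.90 (limma, adjusted p = 0.922). Socs1 had −2.20 and −2.69, a difference of 0.49 ± 0.98. By limma, 0 of the 7 were called, as was 0% of all, while 1 of the 7 had an unadjusted p under 0.05, against 5.96% of all.

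The response to TNF-alpha was also compared between knockdown and control cells. Cish had the only unadjusted p under 0.05 of the 7, against 6.42% of all promoters. Its control libraries had −3.54 and −3.62 without and 0.54 and −3.58 with TNF-alpha, and its knockdown libraries 0.07 and 0.48 without and −1.18 and −2.76 with it. The difference of the differences was −4.30 ± 1.80 (SE; limma, adjusted p = 0.773), and without control replicate 1 with TNF-alpha, the library at 0.54, it was −2.25. Again 0 of the 7 were called, as was 0% of all. Replicate 1 of the knockdown cells carries a smaller MNase amount in its deposited name than the other single H3K4me1 libraries in both states. Without these 2 libraries the Socs4 difference was −2.64 and the Cish difference of differences −5.30, both not called, and the part of the MNase amount in the results was not tested.

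**Figure D4:**
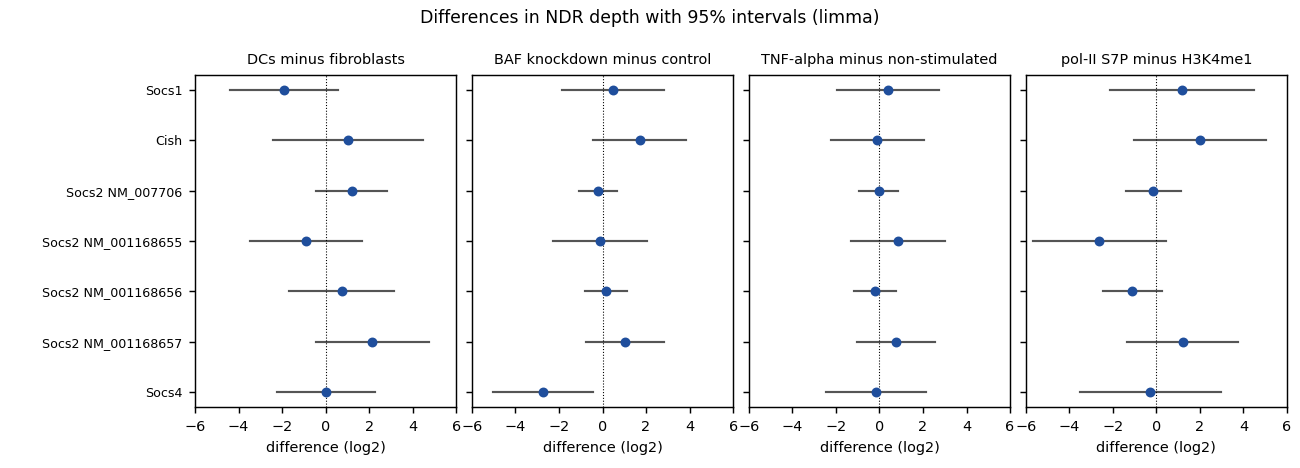
Differences in NDR depth (log2, horizontal axis) at the 7 high-coverage SOCS family promoters (vertical axis) in 4 comparisons fitted with limma. Points are differences of group means and lines are 95% intervals. All intervals of the cell type, TNF-alpha and pol-II S7P comparisons include 0, and with BAF knockdown only that of Socs4 lies below 0.

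Chromatin bound by pol-II S7P was compared with H3K4me1 chromatin of stimulated control cells. At Socs1 the S7P libraries had an NDR depth of −0.80 and −0.62 and the H3K4me1 libraries −3.18 and −0.61, a difference of 1.18 ± 1.39. Cish had 0.70 and 0.24 against 0.54 and −3.58, a difference of 1.99 ± 1.27. For Socs2 NM_001168655 the difference was −2.62 ± 1.28, where 1 S7P library had −3.84 and the other 0.52. By limma, 0 of the 7 were called, as was 0% of all, and 0 of the 7 had an unadjusted p under 0.05, against 9.02% of all. In the gaps located in DCs, S7P chromatin was not below 0.5 at any of the 11 promoters as a mean of 2 libraries, against 28.6% of all promoters that were. The S5P library was below 0.5 at 6 of 11, against 52.5% of all. It had 0.327 at Socs1, 0.0383 at Socs3, 0.136 at Cish, 0.156 at Socs4, 0.110 at Socs5 and 0.402 at Socs2 NM_007706. Pol-II libraries were sequenced with paired ends and H3K4me1 libraries with single ends. The H3K4me1 control cells also carried a construct, and the labels name none for the pol-II libraries. Antibody, read type and construct thus cannot be told apart.

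The share of the 200 bins with any signal gave a second view of pol-II chromatin, chosen after seeing the profiles. At Socs1 the S7P libraries had 94.5% and 97.5% and the S5P library 100%, whereas it was 44.0% and 52.5% in H3K4me1 chromatin of stimulated control cells. The difference between S7P and H3K4me1 was 47.8 ± 8.87 percentage points with a 95% interval of 27.1 to 68.4 (limma, adjusted p = 0.0512), against a median of 6.75 over all promoters. It missed the threshold of 0.05. At Socs4 the shares were 98.0% and 100% against 83.0% and 63.0%, a difference of 26.0 points (limma, adjusted p = 0.133). The internal Socs2 starts differed among themselves. Socs2 NM_001168655 had means of 78.0% and 55.5%, a difference of 22.5 points (limma, adjusted p = 0.16). Socs2 NM_001168657 had 63.8% in S7P and 66.5% in H3K4me1 chromatin, and Socs2 NM_001168656 had 61.8% and 65.5%. By limma, 0 of the 7 were called, against 1.53% of all, and 3 of the 7 had an unadjusted p under 0.05, against 30.9% of all. A higher share can come from more fragments at the promoter as well as from their spread, and these cannot be told apart without counts. Antibody, read type and construct differ together here as well.

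**Figure D5:**
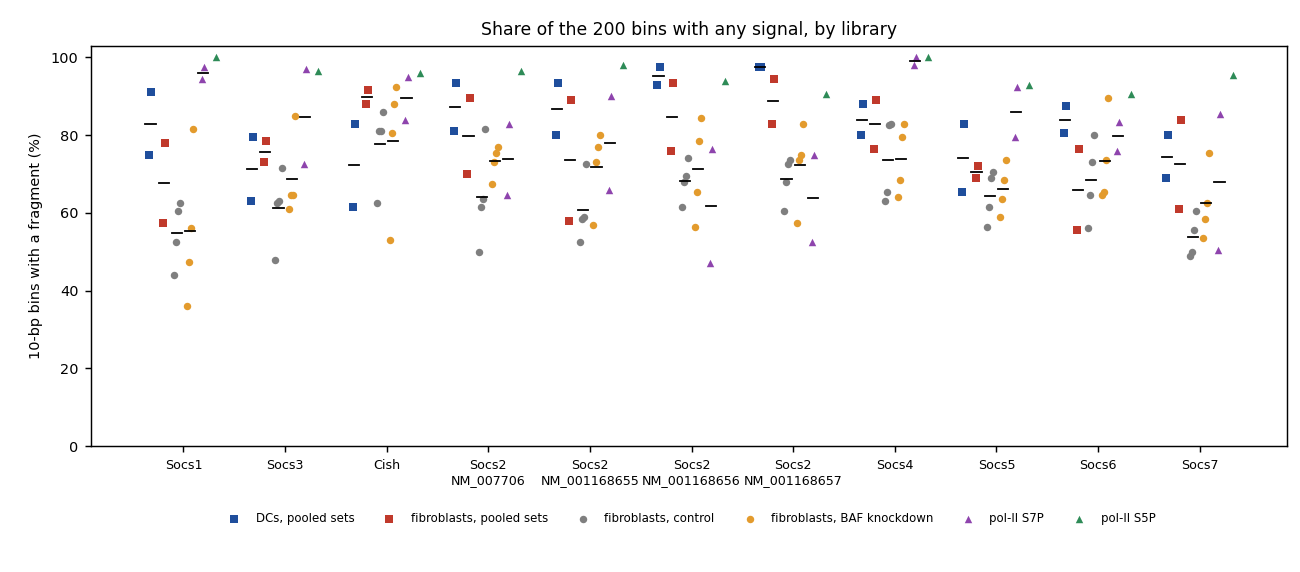
Share of the 200 bins of 10 bp with any signal (percent, vertical axis) in each library at the 11 SOCS family promoters (horizontal axis). Points are libraries and bars are group means. At Socs1 the pol-II libraries lie between 94.5% and 100%, above the 8 single H3K4me1 libraries, which reach 81.5% at most.

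With TNF-alpha the share at Socs1 had the opposite direction within H3K4me1 chromatin. It was 62.5% and 60.5% in control and 81.5% and 56.0% in knockdown cells without stimulation. With TNF-alpha it was 44.0% and 52.5% in control and 47.5% and 36.0% in knockdown cells. The difference was −20.1 ± 6.27 points (limma, adjusted p = 1). The pooled sets had 78.0% without and 57.5% with TNF-alpha in fibroblasts, and 91.0% without and 75.0% with LPS in DCs. Stimulated libraries were lower in each of these. They also filled fewer bins over all high-coverage promoters, 82.0% against 87.3% in pooled fibroblasts and 86.0% against 90.2% in DCs, and the median difference with TNF-alpha in the single libraries was −2.12 points. The part of this in the Socs1 values was not tested. By limma 0 of the 7 SOCS promoters were called in the single libraries, as was 0% of all, and 1 of the 7 had an unadjusted p under 0.05, against 2.51% of all.

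The patterning level, which is the match of a profile to the mean profile of active promoters of its own cell type, gave no call either. DCs and fibroblasts were thus matched to different templates. The part of the template in the cell type comparison was not tested. Between cell types 0 of the 7 SOCS promoters were called, against 0.0738% of all, and 0 of the 7 had an unadjusted p under 0.05, against 8.98%. With BAF knockdown 0 of the 7 were called, as was 0% of all, and 1 of the 7 had an unadjusted p under 0.05, against 6.36%. This was Cish, with −2.14, −1.80, 2.93 and 0.80 in the knockdown libraries and 11.002, 7.07, 1.39 and 12.4 in the controls, and a difference of −8.01 ± 2.97 (SE; limma, adjusted p = 0.761). The groups overlapped because of the control library at 1.39. Socs4 had 2.63 and −9.67, a difference of 12.3 ± 5.26 (limma, adjusted p = 0.788). With TNF-alpha 0 of the 7 were called, as was 0% of all, and 0 of the 7 had an unadjusted p under 0.05, against 6.06%. In S7P against H3K4me1 chromatin 0 of the 7 were called, as was 0% of all, and 2 of the 7 had an unadjusted p under 0.05, against 7.83%. Both were internal Socs2 starts, and at Socs2 NM_001168655 the S7P libraries had 26.5 and −2.61 and the H3K4me1 libraries −19.2 and −12.6, a difference of 27.8.

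Around the SOCS genes in the pathway, no promoter was called between DCs and fibroblasts in NDR depth. High-coverage promoters were found for 3 of 4 JAK kinases (3 promoters), 5 of 7 STAT factors (8), 9 of 15 cytokine receptors (10), 4 of 6 partners in the SOCS-box ubiquitin ligase (4) and 8 of 9 other inhibitors of the pathway (11). In each list 0 were higher and 0 lower by limma, where 0% of all promoters were called. An unadjusted p under 0.05 was found for 1, 1, 2, 0 and 0, against 6.97% of all. The median difference was −0.17, −0.56, −0.12, −0.66 and −0.32 in this order, against 0.08 for all promoters. With BAF knockdown 0 were called in each list, as was 0% of all. An unadjusted p under 0.05 was found for 1, 0, 2, 0 and 3, against 5.96% of all. The medians were 0.69, −0.11, −0.14, 0.30 and −0.06, against 0.00 for all. The promoters with the profile most like that of Socs1 over the 800 values of the 4 pooled sets were those of Smarcc2 (r = 0.42), a subunit of the BAF complex, and Larp7, a component of the small nuclear RNA particle that holds P-TEFb (r = 0.378). For Cish they were Slc26a2, a sulfate transporter (r = 0.419), and Tmem184b (r = 0.396). These were the highest of the comparisons with all high-coverage promoters, on bins that overlap.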

How the data were processed

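ChIP-MNase values of 15 mouse libraries were used. The authors aligned reads to mm9 and deposited a signal per 10 bp bin, relative to the surrounding 1 kb and averaged over overlapping 50 bp bins, after removing excess duplicates and extending single-end reads or keeping paired-end fragments of mononucleosome size. The annotation the authors deposited holds a coverage score and the FPKM of public RNA-seq per TSS. Its 2 columns of log2 expression differences upon stimulation hold the authors' own comparisons and were not used. The submitters' notes name Bowtie2 and the paper's methods bowtie.

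Promoters were matched to symbols by RefSeq name (24924 of 25881). Here each library was divided by its mean over promoters with a score above 100, and NDR depth was calculated with a pseudocount of 0.1. Patterning used a template of active promoters (expression above 0.02 times the mean) from the non-stimulated pooled set of each cell type. The template held 8373 promoters for DCs and 6458 for fibroblasts, and inducible promoters were not removed. Groups were compared with limma 3.58.1 (R 4.3.3) on all 13559 promoters, with Benjamini-Hochberg adjustment at 0.05, checked on simulated data. Pooled sets were fitted with stimulation as a term, and the 10 single libraries as 5 groups. Sequences and CpG content were read from mm9 and transcript starts from GENCODE. All SOCS promoters are named, other pathway genes are given as counts, and the 2 most similar profiles of Socs1 and Cish are named by rule. Socs2 sequences, motif spacing, gap windows and filled bins were added after values had been seen. The members and lists were chosen with earlier results of these data known. Alternatives changed the scaling, coverage limit, windows, pseudocount, patterning scale, replicates and block.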

Additional observations from a re-analysis of the deposited data

How the results depend on the processing

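No SOCS promoter was called in NDR depth or patterning in any of 992 fits of single promoters under the alternatives, where the smallest adjusted p by limma was 0.108. Over all promoters, the 10 calls in patterning between cell types became 0 without scaling, with square roots and without the coverage limit. Without that limit, 7 of 11 SOCS promoters were past 1 with LPS (3 of 7 with the limit), against 40.3% of all promoters. With TNF-alpha in pooled fibroblasts it was 9 of 11 (5 of 7 with the limit), against 38.1% of all. The added members lie below the coverage limit, where a window can be empty from few fragments. Without the limit 7 (BAF knockdown), 9 (TNF-alpha), 7 (interaction) and 49 (pol-II S7P) promoters of 25881 were called in NDR depth, against 0 with it. The replicate number as a block left these counts at 0 of 7 in NDR depth and patterning, but called 1 of 7, Socs1, for filled bins in pol-II S7P chromatin (adjusted p = 0.0475, against 0.0512 without the block), with 634 promoters called in all against 207. The labels do not say that equal numbers pair libraries, though deposited names of single H3K4me1 libraries share a tag by number. Of 10 correlations of deviations between groups, 0 passed 0.1 in NDR depth (−0.0173 to 0.0284) and in patterning (−0.0089 to 0.0138) and 3 in filled bins (−0.0322 to 0.277), where replicate 1 filled more bins than replicate 2 in the 4 H3K4me1 groups and fewer in S7P. Leaving out any 1 of the 10 single libraries took the 207 calls to 0 or 1 and the adjusted p of Socs1 to 0.0559 to 0.194, with 0 of 7 called. With the NDR window at −100 to 50 bp, the TNF-alpha difference of Socs2 NM_007706 in pooled fibroblasts turned from −2.11 to 0.55. The gap count of 3 of 11 in single libraries became 2 to 4 when 1 library was left out. It was 2 of 11 with a 150 bp window, where the pooled count of 8 became 6. The cause of these changes was not tested. Depth is unknown, so an empty bin limits what a single promoter can show. Leaving out libraries and the gap alternatives were chosen after seeing the data for filled bins and gaps.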
